A study of Mus musculus with 35 samples.

Results

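At postnatal day 0 (P0), 12158 of the 50861 Brg1 peaks mapped in the mouse retina (23.9%, 95% Wilson interval 23.5 to 24.3) lay on chromatin that carried both H3K4me3 and H3K27Ac, and these doubly marked Brg1 peaks are described here through retinal maturation and after loss of Brg1. They were chosen by measured values: a Brg1 peak was taken when it shared at least 1 bp with an H3K4me3 peak in both wild-type P0 replicates and with an H3K27Ac peak in both wild-type P0 replicates. Of the other Brg1 peaks, 6959 met the H3K4me3 condition alone, 1372 met the H3K27Ac condition alone and 30372 met neither. Of the 6959, 1.21% had an H3K27Ac peak in P0 replicate 1 and 44.0% in P0 replicate 2. The word alone thus refers to the rule and not to absence of the other mark. The presence of the 2 active marks at P0 is therefore a property of the selection and not a finding, and every comparison of P0 with a later stage reuses libraries of the selection. Wilson intervals cover counting error only, and neighbouring peaks are not independent of each other.

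Brg1 (Smarca4) is an ATPase of the BAF complexes, the mammalian SWI/SNF chromatin remodellers, which use ATP to slide or evict nucleosomes and so change access to DNA. H3K4me3 is typical of the nucleosomes that flank active or poised promoters, and H3K27Ac, laid down by acetyltransferases such as p300 and CBP, marks active promoters and enhancers. H3K27me3 is the product of Polycomb repressive complex 2, cannot sit on the same histone tail residue as H3K27Ac, and together with H3K4me3 defines the bivalent promoters of developmental genes. In the mouse retina the days around birth are a time of continuing progenitor division and rod production, and by P14 and P21 nearly all cells are postmitotic neurons and Müller glia.

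The peak lists came from chromatin immunoprecipitation sequencing of whole retina. Brg1 was mapped with the FLAG tag of a Brg1-FLAG knock-in mouse at P0, in 1 library, so Brg1 occupancy has no replicate. H3K4me3 and H3K27Ac were mapped in wild-type retina at P0, P14 and P21, 2 libraries each, and H3K27me3 likewise. At P12 there were 1 wild-type library for H3K27Ac, 1 for H3K4me3 and 2 for H3K27me3, and the labelled BRG1 -/- retinae gave 2 libraries for H3K27Ac, 1 for H3K4me3 and 1 for H3K27me3. The Brg1-deficient animals carried Chx10-Cre with Brg1 Lox/Lox, and Chx10-Cre acts in retinal progenitor cells in a mosaic, so these retinae still held cells with Brg1. In bulk retina, fewer cells with a mark and less of the mark per cell cannot be told apart. The study describes its duplicates as biological replicates, but the sources do not say which animals or litters each came from, so p-values measure the spread between libraries. Peak lists carry no gene names, and the identity of the tissue was not checked against marker genes here.

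Libraries of the same group differed in how much was called. The H3K27Ac lists held 17588 and 29304 peaks at P0, 17433 and 50005 at P14, 18718 and 45833 at P21, 47404 in wild-type P12, and 40465 and 42887 in Brg1-deficient P12. Replicate 1 at P14 and at P21 thus had far fewer H3K27Ac peaks than replicate 2, and shares with H3K27Ac at these stages are given for both replicates or as present in both, 1 or neither. The H3K4me3 lists were more even, between 18534 and 24124 peaks. H3K27me3 was called as broad islands, between 12188 and 30996 per library, and the P12 libraries used another antibody number than the other stages, so P12 islands are not compared with P0, P14 or P21.

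Doubly marked Brg1 peaks were long and high. Their median length was 903 bp (interquartile range 583 to 1434) against 523 bp over all Brg1 peaks, and their median Brg1 fold enrichment, the height of the summit over the local background as the peak caller gives it, was 6.06 (4.73 to 7.87) against 4.28. Brg1 peaks with H3K4me3 alone had a median of 538 bp and a fold enrichment of 4.48, and peaks with neither mark 438 bp and 3.94. Brg1 peaks with H3K27Ac alone were longer still, at 1473 bp, with a similar fold enrichment of 6.19. A longer peak has more chance to overlap another peak, so length was not independent of the selection.

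The 12158 peaks fell on 10612 distinct H3K4me3 peaks in P0 replicate 1 and 10348 in replicate 2, and on 13153 and 12455 distinct H3K27Ac peaks. Up to 5 Brg1 peaks shared 1 H3K4me3 peak, and 1751 and 1956 H3K4me3 peaks held 2 or more. Conversely, 14.2% and 11.8% of the doubly marked Brg1 peaks spanned 2 or more H3K27Ac peaks, whereas 2.15% and 1.92% spanned 2 or more H3K4me3 peaks. As called, the H3K4me3 peaks were longer than the H3K27Ac peaks. Histone peaks with a doubly marked Brg1 peak had median lengths of 1703 and 1901 bp for H3K4me3 and 528 and 883 bp for H3K27Ac. The remaining peaks of the same libraries had medians of 782 and 843 bp, and of 293 and 377 bp. A longer histone peak has more chance to overlap a Brg1 peak, so this difference was not independent of the selection.

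The summits of the 3 profiles lay close together. The median distance from the Brg1 summit to the nearest summit of an overlapping peak was 149 and 206 bp for H3K4me3 in the 2 replicates, and 160 and 173 bp for H3K27Ac. For Brg1 peaks with H3K4me3 alone, the H3K4me3 summit was farther away, at 411 and 468 bp. The Brg1 summit lay inside the H3K4me3 peak for 96.9% and 97.6% of the doubly marked peaks, and inside an H3K27Ac peak for 77.3% and 91.5%. Of the 2757 and 1029 Brg1 summits outside H3K27Ac, 197 (7.15%) and 110 (10.7%) had an overlapping H3K27Ac peak on both sides. Acetylated peaks beyond the ends of the Brg1 peak were not counted as flanks. A summit in a dip within a called H3K27Ac peak counted as inside. These counts therefore cannot show how frequent a Brg1 summit between acetylated flanks was.

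**Figure D1:**
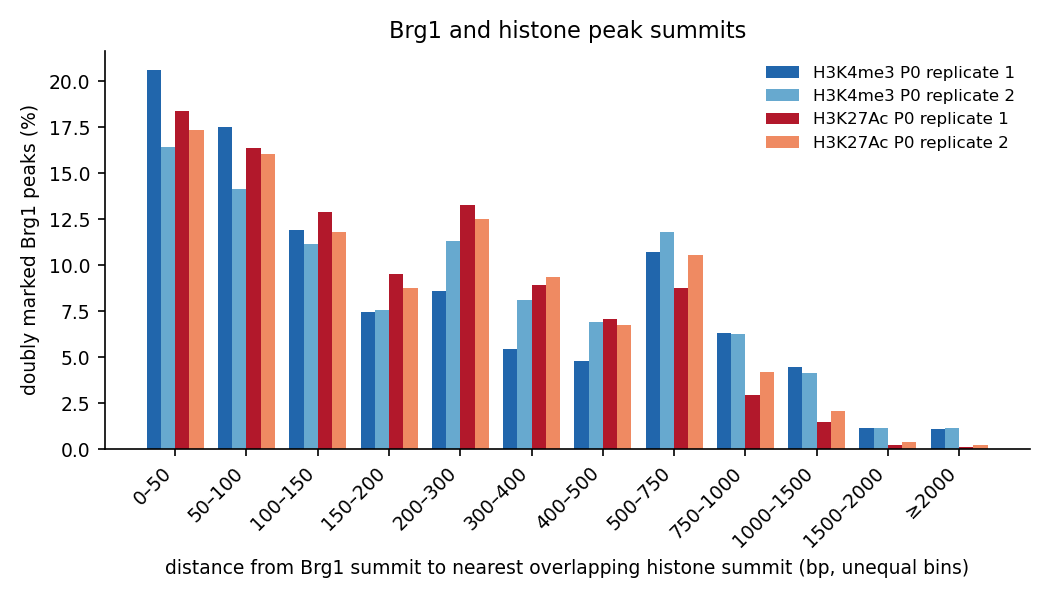
Distance in bp from the Brg1 summit to the nearest overlapping histone summit at P0, as the percentage of the 12158 doubly marked Brg1 peaks in each distance bin, for both replicates of H3K4me3 and H3K27Ac. In H3K4me3 replicates 1 and 2, 50.2% and 42.0% of the summits lay within 150 bp, and in H3K27Ac replicates 1 and 2, 47.8% and 45.4% did.

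The 10 doubly marked peaks with the highest Brg1 fold enrichment include 8 that can be named. The highest, chr5:123584178-123590617 (mm9), reached 35.7, followed by chr17:46992398-46995424 at 26.998, chr1:88420604-88425993 at 24.9, chr19:5802561-5812127 at 24.9 and chr2:30561393-30566529 at 24.2. These 5 kept H3K27Ac and H3K4me3 in every library at every stage and in both genotypes, and 4 of them had no H3K27me3 island in any of 9 libraries, the exception being chr1:88420604-88425993 with an island in the Brg1-deficient library alone. At chr5:123584178-123590617 the H3K27Ac fold enrichment was 9.31 and 22.2 at P0, 27.3 in wild-type P12, 29.2 and 27.8 in Brg1-deficient P12, 18.1 and 43.9 at P14, and 16.8 and 13.2 at P21. The replicates at P0 and at P14 differed more from each other than the genotypes did at P12.

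The next 3 were more varied. The longest, chr5:143574070-143587533, spans 13464 bp with a Brg1 fold enrichment of 22.8. Its H3K27Ac fold enrichment was 22.2 and 19.997 at P0, 10.7 and 12.3 at P14, and 5.24 and 9.52 at P21, and it had no H3K27me3 island in either P0 library and an island in both P14 and both P21 libraries. Both P0 libraries were above both of each later stage. The peak at chr7:16985505-16989075 (Brg1 fold enrichment 22.2) instead held H3K27Ac of 21.4 and 21.4 at P0, 22.6 and 41.7 at P14, and 20.6 and 23.4 at P21, with no island in any library. The peak at chr4:8836685-8841439 (21.7) had H3K27Ac of 11.7 and 17.2 at P0, 3.05 and 9.90 at P14, and 7.49 in P21 replicate 2 with no peak in replicate 1.

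At the edge of the selection, overlap with a weak histone peak sufficed. The members with the weakest P0 histone overlap were chr13:120277504-120278007, with H3K27Ac of 1.91 and 1.92, chr6:127716725-127718434, with 4.97 and 1.98, and chr3:61166790-61167485, with 3.73 and 2.12. Just outside it, 3329 Brg1 peaks had 3 of the 4 required P0 histone peaks. The strongest Brg1 peaks outside the selection were chr9:107508973-107516045 at 18.7, which lacked H3K4me3 in P0 replicate 1 and had 5.58 in replicate 2, chr8:87337367-87339889 at 17.7, which lacked H3K4me3 in both, and chr12:112923262-112934670 at 16.9, which lacked it in replicate 1 and had 3.86 in replicate 2. All 3 had H3K27Ac in every library and H3K4me3 in both P12 libraries, so peaks on either side of the threshold could look alike later.

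H3K4me3 was kept at nearly all of these sites. A peak overlapped 97.8% and 97.9% of the doubly marked Brg1 peaks in the 2 P14 libraries, 98.7% and 96.9% at P21, 98.9% in wild-type P12 and 97.8% in Brg1-deficient P12. In all 6 later H3K4me3 libraries together, 11736 (96.5%, 96.2 to 96.8) had a peak, and 100 had none. Among Brg1 peaks with H3K4me3 alone at P0, the share in single later libraries was 66.3% to 84.9%, and over all Brg1 peaks 34.0% to 39.5%. Among doubly marked H3K4me3 peaks without a Brg1 peak it was 96.97% to 99.04%. The high share was therefore not particular to peaks with Brg1.

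H3K27Ac was kept less uniformly, and its share was lowest in the 2 later libraries with the shortest lists. At P14 68.5% of the doubly marked peaks had an H3K27Ac peak in replicate 1 and 97.3% in replicate 2. At P21 the shares were 55.8% and 93.5%, in wild-type P12 93.0%, and in Brg1-deficient P12 96.3% and 95.8%. Replicate 1 was the lower at both P14 and P21, and the gap between replicates exceeded that between stages, so the shares of the 2 stages overlapped. For Brg1 peaks with H3K4me3 alone at P0 the shares were 13.6% and 58.2% at P14, and 14.2% and 45.6% at P21, lower than the doubly marked peaks within every library. That class was not free of acetylation at P0, since 44.0% of it had an H3K27Ac peak in P0 replicate 2 and 1.21% in replicate 1.

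**Figure D2:**
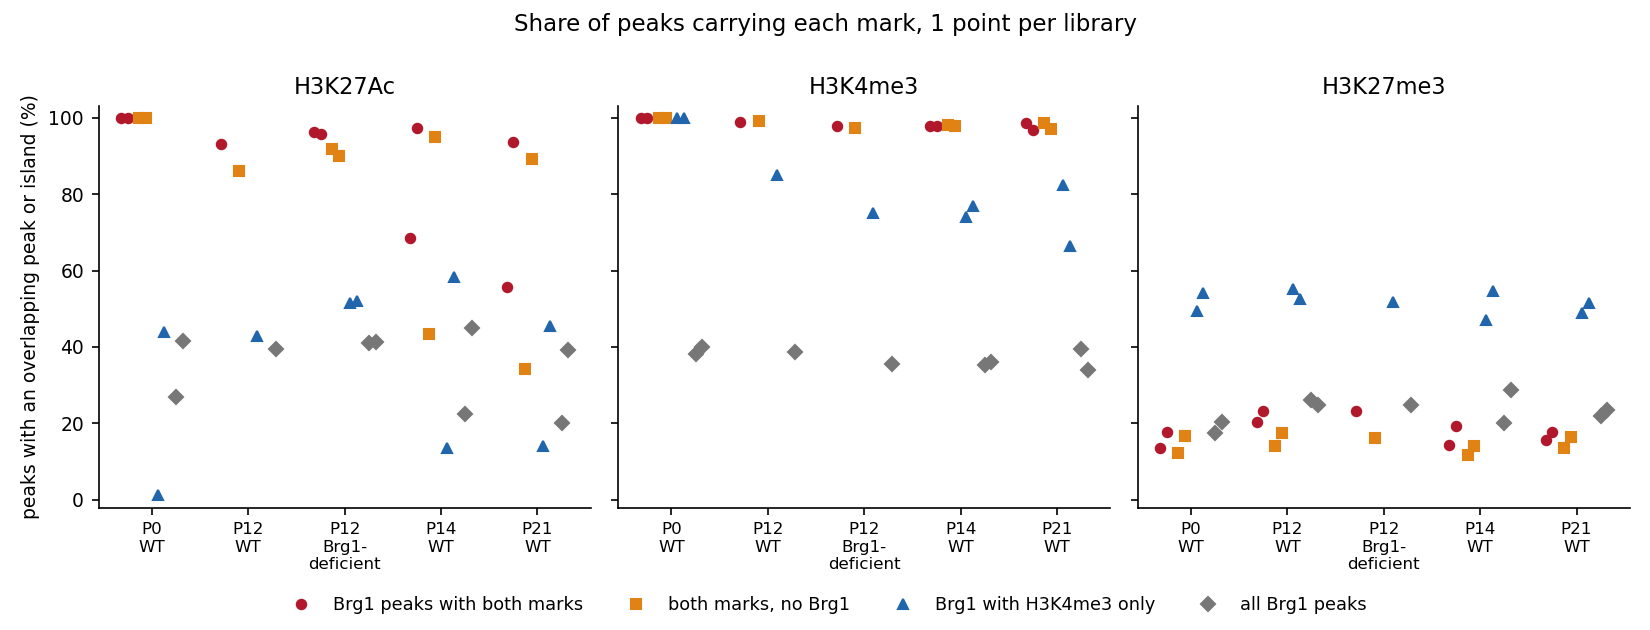
Percentage of Brg1 peaks with an overlapping H3K27Ac peak, H3K4me3 peak or H3K27me3 island in each library by stage, for doubly marked Brg1 peaks, other Brg1 classes and doubly marked H3K4me3 peaks without Brg1; each point is 1 library and WT is wild type. Doubly marked peaks stay between 96.9% and 98.9% for H3K4me3 after P0 and spread from 55.8% to 97.3% for H3K27Ac.

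Together, 6440 doubly marked peaks (53.0%, 52.1 to 53.9) had a peak in all 17 libraries of the 2 active marks, and 189 had no H3K27Ac peak in any of the 7 later libraries. Of these 189, 98 kept H3K4me3 in all 6 later libraries and 43 had neither mark again. Loss of H3K27Ac without loss of H3K4me3 was therefore the more frequent of the 2 patterns among them. H3K27me3 was more frequent at the 98 than at the peaks that kept all marks: 63.3% of the 98 had an island in both P21 replicates, against 2.14% of the 6440.

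The 5 peaks with the highest P0 H3K4me3 among those with no later H3K27Ac show that acetylation could end with and without an island. At chr3:36469784-36470909 the H3K27Ac fold enrichment was 15.8 and 23.0 at P0 and no peak was called in any later library, while H3K4me3 was 58.9 and 77.1 at P0, 36.6 and 51.4 at P14, and 46.0 and 14.9 at P21. The same held at chr3:27052136-27052790 (H3K27Ac 11.6 and 18.1 at P0), chr5:149864950-149865643 (11.9 and 18.6) and chr19:38129578-38130052 (4.11 and 12.4), and none of these 4 had an H3K27me3 island in any of 9 libraries. The fifth, chr4:71859895-71860589 (5.49 and 16.6), had no island at P0 and an island in both P14 and both P21 libraries. All 5 kept H3K4me3 in every later library.

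Where an H3K4me3 peak carried H3K27Ac at P0, later H3K27Ac was more frequent with Brg1 than without it, by far more in replicate 1 with its short lists than in replicate 2. Counted from the H3K4me3 peaks of P0 replicate 1, 10710 doubly marked peaks held a Brg1 peak and 1255 did not. At P14 H3K27Ac was present at 70.0% and 97.8% of those with Brg1 and at 43.4% and 94.9% of those without, and at P21 at 58.1% and 94.1% against 34.2% and 89.1%. The H3K4me3 peaks with Brg1 were also longer, at a median of 1710 against 1259 bp, and higher in P0 H3K27Ac, at a median of 8.68 and 9.67 against 6.26 and 7.31, and the part of length was not tested. For height, the peaks were also split into quartiles by P0 H3K27Ac fold enrichment, a value that the selection used. From the lowest quartile up, 533, 343, 254 and 125 of the peaks without Brg1 fell in them. From the lowest to the highest quartile, the P14 replicate 1 shares were 42.2%, 63.6%, 79.8% and 90.7% with Brg1 and 28.5%, 39.9%, 62.2% and 78.4% without, and in P21 replicate 1 they were 33.3%, 49.2%, 65.1% and 81.0% with Brg1 and 21.8%, 31.8%, 45.7% and 70.4% without. In P14 replicate 2 they were 94.4%, 97.5%, 99.1% and 99.7% with Brg1 and 91.4%, 95.3%, 99.2% and 100% without, and in P21 replicate 2 86.1%, 92.9%, 97.5% and 98.9% with Brg1 and 82.6%, 90.1%, 96.1% and 100% without. The share was higher with Brg1 in each quartile of the replicate 1 libraries. In replicate 2 the order turned in the 2 highest quartiles at P14 and in the highest at P21, where the shares were 98.9% to 100% and could hardly differ. No test was made since peaks are not replicates, and the part of height was not tested either.

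H3K27me3 had no part in the selection. At P0 an island overlapped 13.7% and 17.7% of the doubly marked peaks, at P14 14.3% and 19.2%, and at P21 15.7% and 17.7%. Over these 6 libraries the share was 47.0% to 54.6% for Brg1 peaks with H3K4me3 alone and 17.5% to 28.7% over all Brg1 peaks. For doubly marked H3K4me3 peaks without a Brg1 peak it was 11.6% to 16.7%, lower than at the doubly marked Brg1 peaks in each library. A low share was therefore not particular to peaks with Brg1. At P12, with the other antibody number, islands overlapped 20.4% and 23.4% of the doubly marked peaks in the wild-type libraries and 23.4% in the Brg1-deficient library, against 26.01%, 24.8% and 24.7% of all Brg1 peaks. At the doubly marked peaks the ranges of the 3 stages overlapped.

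Of the 12158 peaks, 1555 (12.8%) lay under an island in both P0 replicates, 9903 (81.5%) in neither and 700 in 1. The 1555 peaks with P0 islands had lower active marks at P0, with median H3K27Ac of 5.47 and 6.41 against 9.52 and 10.5 at peaks without an island, and median H3K4me3 of 33.8 and 35.1 against 40.9 and 41.3. They also kept H3K27Ac less often, at 39.9% and 94.1% in the P14 libraries against 74.2% and 97.8%, and at 28.0% and 82.6% in the P21 libraries against 61.6% and 95.4%. H3K4me3 did not follow this split, since 97.5% to 99.7% of the peaks with P0 islands had it in each later library.

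The 5 peaks with P0 islands and the highest Brg1 fold enrichment had an H3K27me3 island in all 9 libraries, yet differed in acetylation. At chr12:81212123-81217711 H3K27Ac was 10.5 and 13.96 at P0, 13.0 and 18.5 at P14, and 13.97 and 14.5 at P21, the P14 values overlapping those of both other stages and the P21 values lying just above those of P0. At chr11:118913375-118920770 it was 18.3 and 19.7 at P0, 10.5 and 16.2 at P14, and 5.20 and 6.29 at P21, both P21 values being below all others. At chr4:151501571-151509007 it was 13.1 and 7.82 at P0, absent and 4.80 at P14, and absent and 3.64 at P21, and H3K4me3 was 28.8 and 26.3 at P0 and 9.68 and 4.62 at P21. The peaks at chr15:102185225-102188091 and chr14:62299740-62303027 completed the set, the former without H3K27Ac in replicate 1 at P14 and P21 and the latter with H3K27Ac in every library.

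The later fate of H3K27Ac and of H3K27me3 moved together. H3K27Ac was absent from both P21 replicates at 788 doubly marked peaks (6.48%), present in 1 replicate at 4587 and present in both at 6783. Among the peaks without a P0 island, an island was called in both P21 replicates at 164 of 452 that had lost H3K27Ac (36.3%, 32.0 to 40.8), at 381 of 3354 with H3K27Ac in 1 replicate (11.4%) and at 55 of 6097 that had kept it (0.902%). Among the peaks with a P0 island, an island was present at P21 at 269 of 270 that had lost H3K27Ac (99.6%), at 640 of 850 with 1 replicate (75.3%) and at 90 of 435 that had kept it (20.7%). Replicate 1, with the short H3K27Ac list, decided part of this: scored by it alone, 14.3% of the lost peaks without a P0 island had a P21 island, and scored by replicate 2 alone, 36.3% of the lost and 4.60% of the kept peaks did.

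The order was the same at P14, where 333 peaks had lost H3K27Ac. Without a P0 island, 68 of 220 lost peaks (30.9%), 307 of 2338 with 1 replicate (13.1%) and 138 of 7345 kept peaks (1.88%) had an island in both P14 replicates. With a P0 island the shares were 94.5% of 91, 80.1% of 843 and 30.9% of 621. Because both marks were read from bulk tissue, the overlap of an island with an acetylated peak does not place both marks in the same cells.

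**Figure D3:**
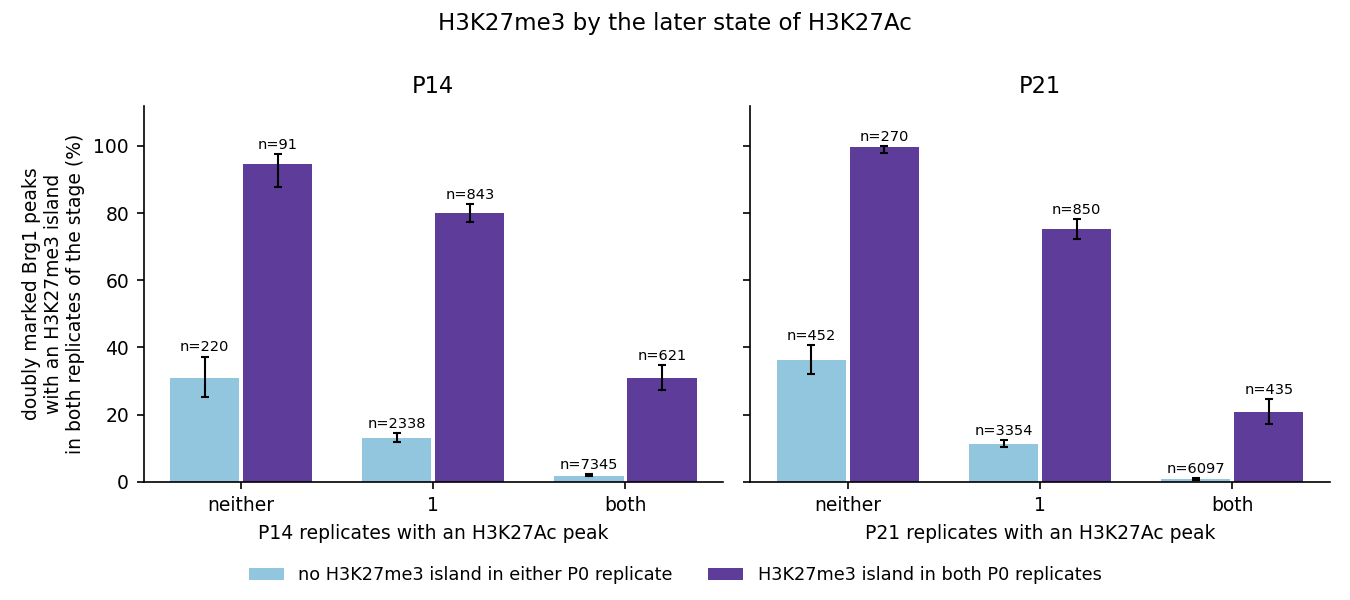
Percentage of doubly marked Brg1 peaks with an H3K27me3 island in both replicates at P14 and P21, with n above each bar, by whether H3K27Ac was absent from both replicates, present in 1 or present in both at that stage, and by H3K27me3 island at P0; error bars are 95% Wilson intervals. At P21 the share falls from 36.3% to 0.902% without a P0 island and from 99.6% to 20.7% with one.

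The reverse view gives how frequent each course was. From no island at P0, 600 of 9903 peaks (6.06%) had an island in both P21 replicates, and of these 164 (27.3%) had lost H3K27Ac and 55 (9.17%) had kept it. Of the 9072 with no island at P21, 243 (2.68%) had lost H3K27Ac and 6014 (66.3%) had kept it. Of the 1555 peaks with an island at P0, 999 (64.2%) still had it in both P21 replicates and 457 (29.4%) had none. Among the 457, 1 had lost H3K27Ac and 303 (66.3%) had kept it, and among the 999, 269 had lost and 90 had kept it.

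Height at P0 moved with loss. From the lowest to the highest quartile of P0 H3K27Ac fold enrichment, 16.2%, 6.15%, 2.30% and 1.25% of the doubly marked peaks had lost H3K27Ac at P21. Within each quartile, among peaks without a P0 island, the share with a P21 island was 34.5%, 36.6%, 44.6% and 34.5% of the lost peaks, against 0.728%, 0.786%, 1.22% and 0.771% of the kept peaks. The share was higher for the lost than for the kept peaks in each quartile. In the highest quartile it rested on 10 of 29 lost peaks (Wilson 19.9 to 52.7). The quartiles were cut on a value that the selection used, so the part of height in this difference was not tested. H3K4me3 was still found at 86.5% and 72.1% of the 788 lost peaks in the P21 libraries, against 99.8% and 99.5% of the kept ones.

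Heights were compared between stages with limma on the log2 of the highest fold enrichment per merged region, scaled so that each library had the same median over regions with a peak in every library. A region joins all overlapping peaks of a mark, so it can hold several Brg1 peaks, and those with no peak in any 1 library were left out, which removes the sites that lost the mark. For H3K27Ac, 5780 of the 11767 regions with a doubly marked Brg1 peak were tested, and for H3K4me3 9723 of 10282. The contrasts with P0 use the libraries of the selection, so their counts are given as a description with the background rate and nothing is read from them. The 2 contrasts with P0 share the P0 libraries.

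For H3K27Ac, 89 of the 5780 regions were called higher and 17 lower at P14 than at P0 (limma, Benjamini-Hochberg adjusted p below 0.05). Over all 6394 regions tested, 1.92% were called, 1.64% higher and 0.282% lower. At P21 against P0 159 were called higher and 41 lower, where 3.93% of all regions were called, 3.25% higher and 0.673% lower. These calls depend on the scaling: without it none was called in either contrast, while the median of all tested regions moved by 0.18 and -0.43 (log2). With regions that had a peak in at least 2 libraries the P21 calls turned to 13 higher and 275 lower, and none was called at P14. Leaving out 1 library left between 5 and 183 calls at P14 and between 15 and 200 at P21. At P14 it was P0 replicate 1 (5), P0 replicate 2 (9) and P14 replicate 1 (11) that cut the count and P14 replicate 2 (183) that raised it, and at P21 it was P0 replicate 1 (29), P0 replicate 2 (27) and P21 replicate 1 (15) that cut it.

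The regions with the largest H3K27Ac rises from P0 are given by their values, and since both contrasts use the same P0 libraries, a region low at P0 can rank high in both. At chr5:140382194-140389527 the scaled fold enrichment was 3.46 and 2.56 at P0, 19.98 and 17.4 at P14, and 22.7 and 14.9 at P21, a log2 difference of 2.65 (SE 0.45) at P14 and 2.63 (SE 0.45) at P21. At chr2:180190273-180198265 it was 3.07 and 3.21 at P0, 19.4 and 15.1 at P14, and 22.4 and 15.6 at P21. Every later library lay above both P0 libraries at both regions. They were picked for a rise from P0, so nothing is read from that order. At chr14:56134239-56146156, the largest rise at P21 (log2 difference 2.64, SE 0.45), it was 3.29 and 4.46 at P0, 25.9 and 14.6 at P14, and 31.8 and 17.9 at P21. Further picked rises were chr9:29217064-29221760, with 2.43 and 5.10 at P0 and 33.5 and 13.9 at P21, and chr8:87467740-87471937, with 4.61 and 2.98 at P0 and 22.6 and 17.9 at P14. Another was chr17:43703962-43707770, with 4.35 and 3.09 at P0 and 19.2 and 20.7 at P21.

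The regions with the largest H3K27Ac falls are given likewise, and the sizes of rises and falls are not compared, since sites that lost the mark were not tested and the scaling shifts both. At chr5:138596166-138597077 the scaled fold enrichment was 21.3 and 20.5 at P0, 6.61 and 4.27 at P14, and 5.38 and 9.33 at P21, a log2 difference of -1.98 (SE 0.45) at P14. At chr14:9046152-9047548 it was 20.8 and 20.9 at P0 and 4.96 and 7.10 at P14, but 6.97 and 16.8 at P21. The second region therefore differed from P0 more evenly at P14 than at P21, where its replicates lay far apart. At chr15:27953780-27956353, the largest fall at P21 (-1.88, SE 0.45), it was 13.5 and 28.8 at P0, 6.95 and 6.90 at P14, and 5.10 and 5.64 at P21. The other named falls were chr8:86239032-86239995 at P14, and chr15:85500155-85502616, chr10:83995823-83997386, chr1:183771228-183773352 and chr6:136775982-136776739 at P21, with log2 differences of -1.59 to -1.78.

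For H3K4me3, 77 of the 9723 regions were called higher and 163 lower at P14 than at P0, where 4.98% of all 15065 regions tested were called, 1.37% higher and 3.61% lower. At P21 against P0 100 were called higher and 467 lower, where 11.8% of all were called, 1.65% higher and 10.2% lower. Without scaling there were 2 and 12 calls, with the median of all tested regions at -0.21 and -0.12. Leaving out 1 library left 66 to 92 calls at P14, each of the 4 libraries cutting the count, and without P0 replicate 2 the split became 34 higher and 32 lower. At P21 P0 replicate 1 (301), P0 replicate 2 (202) and P21 replicate 1 (262) cut the count.

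At chr10:80868182-80872977, the largest rise in H3K4me3 at P21 (log2 difference 3.18, SE 0.39), the scaled fold enrichment was 3.62 and 4.45 at P0, 17.99 and 30.3 at P14, and 35.2 and 37.7 at P21. At chr4:148261714-148268363 it was 4.48 and 3.80 at P0, 30.0 and 22.9 at P14, and 32.4 and 36.5 at P21. Another picked rise was chr11:116673487-116677072, with 4.48 and 4.14 at P0 and 31.4 and 29.0 at P21. These regions were picked for a rise from P0, so nothing is read from the order of their stages. The largest fall at P21 was chr7:52470810-52472917, with 39.3 and 38.7 at P0, 12.9 and 7.82 at P14, and 5.47 and 5.53 at P21 (-2.83, SE 0.39). The largest at P14 was chr14:73637409-73640073, with 27.5 and 29.3 at P0, 6.46 and 3.42 at P14, and 5.97 and 8.74 at P21 (-2.60, SE 0.39). Another fall, chr10:42297806-42305490, was among the largest in both contrasts, with 48.2 and 45.1 at P0, 7.88 and 10.8 at P14, and 7.62 and 9.57 at P21.

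**Figure D4:**
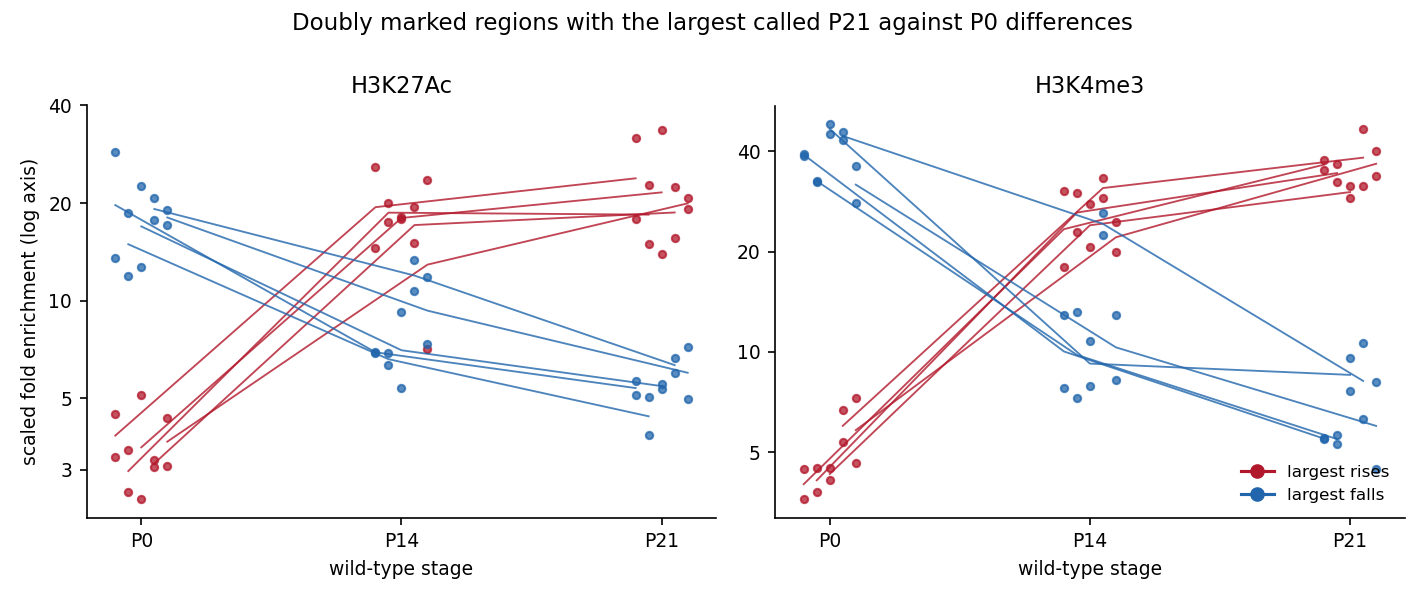
Scaled fold enrichment (log axis) in each wild-type library at P0, P14 and P21 for the 5 largest called rises and 5 largest falls at P21 in H3K27Ac and in H3K4me3; each point is 1 library, lines join the geometric means of the stages, and regions are shifted sideways to separate them. At chr10:80868182-80872977 H3K4me3 goes from 3.62 and 4.45 at P0 to 35.2 and 37.7 at P21, and at chr7:52470810-52472917 from 39.3 and 38.7 to 5.47 and 5.53.

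P21 against P14 used no library of the selection. For H3K27Ac limma called none of the 5780 regions and none of all 6394 tested (0%). An unadjusted limma p below 0.05 was found at 270 of the 5780 (4.67%), against 4.77% of all regions tested. The median log2 difference of the 5780 was 0.01, and 80% of them lay between -0.57 and 0.58. The largest rise was at chr17:71875578-71877087, with scaled fold enrichments of 6.48 and 4.58 at P14 and 16.3 and 16.0 at P21 (limma adjusted p = 0.921), and the largest fall was at chr8:90885053-90886281, with 16.2 and 19.7 at P14 and 5.58 and 8.28 at P21 (limma adjusted p = 0.989). The replicates of these regions do not overlap between stages, but neither difference passed the test over all regions.

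For H3K4me3 limma called none of the 9723 regions between P14 and P21, and 7 of all 15065 regions (0.0465%), all lower at P21. An unadjusted limma p below 0.05 was found at 590 of the 9723 (6.07%), against 8.37% of all regions tested. The largest differences among the doubly marked peaks were falls. At chr2:90918240-90919474 the scaled fold enrichment was 18.6 and 21.3 at P14 and 6.79 and 6.32 at P21 (log2 difference -1.60, SE 0.39, limma adjusted p = 0.0918). At chr9:91274973-91277166 it was 26.2 and 31.0 at P14 and 9.43 and 9.97 at P21, and at chr10:111706781-111709565 it was 45.8 and 43.1 at P0, 22.5 and 26.1 at P14, and 6.29 and 10.7 at P21. Without P21 replicate 2, 40 of the 9723 were called, all lower at P21, so that library decides this result.

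At P12 the doubly marked peaks of wild-type and Brg1-deficient retinae carried H3K27Ac at nearly the same sites. H3K27Ac was present in all 3 P12 libraries at 11175 of the 12158 (91.9%) and in none at 302 (2.48%). Over all Brg1 peaks these shares were 34.6% and 53.0%, and over Brg1 peaks with H3K4me3 alone 36.3% and 38.6%. Over doubly marked H3K4me3 peaks without Brg1 they were 83.2% and 5.82%. A peak in the wild-type library and in neither Brg1-deficient library was found at 21 (0.173%), and a peak in both Brg1-deficient libraries and not in the wild-type one at 347 (2.85%). Over all Brg1 peaks the same patterns held 1027 (2.02%) and 1398 (2.75%), and over Brg1 peaks with H3K4me3 alone 145 (2.08%) and 551 (7.92%). Over doubly marked H3K4me3 peaks without Brg1 they held 10 (0.797%) and 66 (5.26%). The split is uneven by design, since it asks for absence from 2 Brg1-deficient libraries but from 1 wild-type library. With Brg1-deficient replicate 1 as the only such library, the counts were 72 for wild type alone and 469 for Brg1-deficient alone. With replicate 2 they were 83 and 425. Each of the 2 Brg1-deficient libraries thus changed the smaller count by over 1.5 times. With equal list lengths the 21 and 347 became 48 and 702, and with an overlap of 50% the 21 became 57.

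The 347 peaks were weak where they were called. Their median H3K27Ac fold enrichment was 5.05 and 4.94 in the Brg1-deficient libraries, against 13.3 and 13.0 at the peaks with H3K27Ac in all 3 libraries. In wild-type P14 replicate 2, 90.8% of them had an H3K27Ac peak, with a median of 5.19, and in P21 replicate 2 56.5% had one. An H3K27me3 island was present at P12 at 64.6% and 64.3% of the 347 in the wild-type libraries and at 64.3% in the Brg1-deficient library, against 16.6%, 20.1% and 20.2% of the peaks with H3K27Ac in all 3. The wild-type P12 library also had a lower median H3K27Ac fold enrichment over all doubly marked peaks, 10.5 against 12.9 and 12.7, and the part of that difference in the 347 was not tested.

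No region passed the test of H3K27Ac height between the genotypes, with 1 wild-type library in the comparison. The regions compared were the 5744 of 11521 with a doubly marked Brg1 peak that had H3K27Ac in all 9 libraries. The limma fit covered all 6341 regions with H3K27Ac in all 9. The fit assumed that the lone wild-type library varies as the other groups do. Groups with 2 libraries did not all vary alike, as the shares below show. The median log2 difference, Brg1-deficient minus wild type, was -0.03, and 80% of the regions lay between -0.53 and 0.57, with a median SE of 0.51. In each Brg1-deficient library 5.19% and 4.67% of the regions differed from wild type by 2-fold or more in either direction, and the 2 Brg1-deficient libraries differed from each other by as much at 5.31%. The 2 wild-type P14 replicates did so at 13.7%. A change of moderate size at single regions would not be detectable with these libraries.

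The regions with the largest H3K27Ac differences are given by value. At chr13:63915307-63917485 the scaled fold enrichment was 4.35 in wild type and 9.72 and 17.5 in the Brg1-deficient libraries, and at chr1:193047497-193049375 it was 5.93 against 17.9 and 15.1. At chr2:29903826-29905151 it was 19.6 in wild type and 7.95 and 5.37 in the Brg1-deficient libraries, and at chr10:18728958-18735997 it was 23.2 against 8.74 and 9.58. Both Brg1-deficient libraries lay on 1 side of the wild-type library at each of these regions, and none passed the limma test.

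H3K4me3 at P12 was measured in 1 library per genotype, so no test was made. A peak was present in both genotypes at 11886 of the 12158 peaks (97.8%) and in neither at 124. In wild type alone it was present at 144 (1.18%), and in Brg1-deficient alone at 4 (0.0329%). Over all Brg1 peaks, 35.2% had one in both, 1705 (3.35%) in wild type alone and 142 (0.279%) in Brg1-deficient alone. Doubly marked H3K4me3 peaks without Brg1 held 97.4%, 21 (1.67%) and 0. The wild-type library had 22846 peaks against 19495, and a higher median fold enrichment at the doubly marked peaks, 59.8 against 40.8. With equal list lengths the doubly marked shares were 98.1% in wild type and 97.5% in Brg1-deficient. The part of these library differences in the 144 was not tested. Of 9927 regions with a doubly marked Brg1 peak, 273 (2.75%) were 2-fold or more higher and 176 (1.77%) 2-fold or more lower in the Brg1-deficient library after scaling, where 2.86% and 2.45% of all 16831 regions were. The 2 wild-type P14 replicates differed by more, with 441 (4.44%) higher and 365 (3.68%) lower in replicate 3 than in replicate 2. The share of regions 2-fold or more apart was thus smaller between the genotypes at P12 than between replicates of 1 genotype at P14.

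H3K27me3 islands at P12 were present in all 3 libraries at 2093 of the doubly marked peaks. Both wild-type libraries and not the Brg1-deficient library had an island at 151 (1.24%), and the Brg1-deficient library alone had one at 323 (2.66%). Over all Brg1 peaks these counts were 999 (1.96%) and 1039 (2.04%). Wild-type replicate 1 alone had an island at 170 and replicate 2 alone at 246, against 1403 and 736 over all Brg1 peaks. At the doubly marked peaks, islands found in 1 library alone were thus more frequent in the Brg1-deficient library than in each wild-type library, by a margin that 1 library cannot test. Counting every island, the Brg1-deficient library had one at 2839 doubly marked peaks, against 2486 and 2841 in the wild-type libraries.

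**Figure D5:**
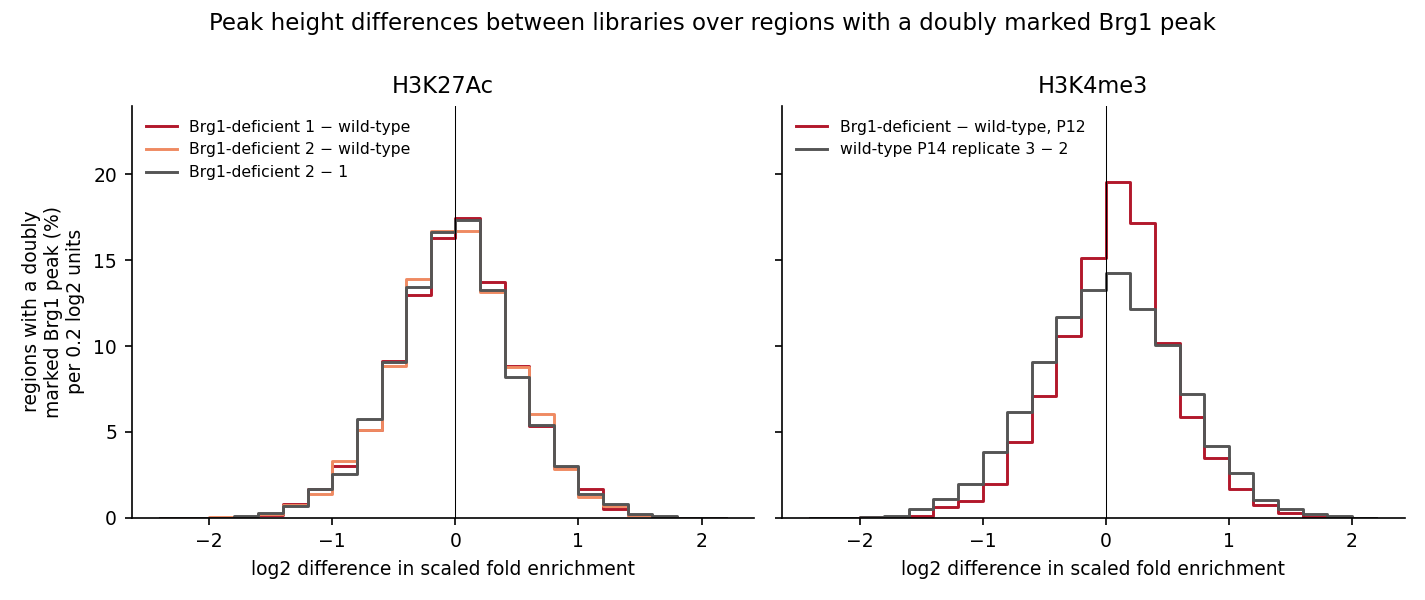
Distribution of the log2 difference in scaled fold enrichment between libraries over regions with a doubly marked Brg1 peak, as percentage of regions per 0.2 log2 units. For H3K27Ac the Brg1-deficient minus wild-type differences and the difference between the 2 Brg1-deficient libraries overlie each other (5.19%, 4.67% and 5.31% of regions at 2-fold or more), and for H3K4me3 the genotype difference is narrower than that between wild-type P14 replicates.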

How the data were processed

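Peak lists were available for 27 of the 35 samples, and the 8 input samples have no lists. Per the submitters' processing notes, reads were aligned to mm9 with BWA 0.5.9-r26, and Picard 1.65, bedtools 2.17.0, R 2.14.0, MACS2 2.0.9 and SICER 1.1 were used. The authors deposited, for Brg1, H3K4me3 and H3K27Ac, peaks called per library with a fold enrichment ratio at the summit, a −log10 q-value and a score; for H3K27me3 the deposited files hold SICER islands with a score, used for presence only. Read depth is unknown from these lists.

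Overlap meant at least 1 bp, computed in Python 3.11.15 with pandas 2.3.3. Heights were tested with limma 3.58.1 in R 4.3.3, on the log2 of the highest fold enrichment per merged region, with Benjamini-Hochberg adjustment over all regions tested and the 6 wild-type libraries of a mark (or all 9 H3K27Ac libraries for P12) in 1 fit. The test was checked on simulated data. The selection and the lists were chosen with earlier results of these data known. Named regions were, by rule, the 10 highest Brg1 peaks, the 3 peaks just inside and outside the selection, the 5 largest differences per contrast and direction, the 5 highest by H3K4me3 without later H3K27Ac and the 5 highest by Brg1 with P0 islands; regions on chromosome 18 were left unnamed, and only some are described. Alternatives covered overlap, list length, scaling, filter, pseudocount, replicate block and omitted libraries. Those on H3K27me3 by H3K27Ac fate and on peaks in 1 genotype at P12 were added after seeing the data. Genome sequence and gene annotation of mm9 were not used here, so the planned distances to start sites, gene lists and sequences were not analysed here.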

Additional observations from a re-analysis of the deposited data

How the results depend on the processing

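Of 126 alternatives over 25 results, 70 left the result within a set tolerance, which does not mean unchanged. For shares of replicated groups the tolerance was the standard deviation between replicates, 20.4 points for H3K27Ac at P14. A fall there from 68.5% to 61.7% with an overlap of 50% thus stayed within it. For counts, a rise from 12158 to 15864 doubly marked peaks, with a peak in either replicate, also did. So did a rise from 567 to 848 H3K4me3 calls at P21 against P0 with a replicate block. The number of doubly marked Brg1 peaks was 7928 with the 50% strongest histone peaks and 12272 to 15691 with 1 replicate number left out. With an overlap of 50%, the shares with a peak were 91.5% for H3K27Ac in both Brg1-deficient libraries, 89.9% in wild-type P12, 21.4% for H3K27me3 in Brg1-deficient P12, and 95.6%, 97.1%, 94.7% and 94.1% for H3K4me3 in Brg1-deficient P12, wild-type P12, P14 and P21. With equal list lengths (17433 H3K27Ac and 18534 H3K4me3 peaks) they were 84.9% and 81.3% for H3K27Ac in Brg1-deficient and wild-type P12, and 98.1% and 97.1% for H3K4me3 in wild-type P12 and P14. Leaving out 1 library gave 95.8% to 96.3% for H3K27Ac in Brg1-deficient P12, 68.5% to 97.3% at P14, 55.8% to 93.5% at P21, 13.7% to 17.7%, 14.3% to 19.2% and 15.7% to 17.7% for H3K27me3 at P0, P14 and P21, 20.4% to 23.4% in wild-type P12, and 97.8% to 97.9% and 96.9% to 98.7% for H3K4me3 at P14 and P21.

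The share of P21 islands among peaks that lost H3K27Ac was 28.3% with 50% overlap, 31.7% with equal lists and 14.3% to 36.3% with 1 library left out, and among kept peaks 0.918% to 4.60%. The 21 peaks with H3K27Ac in wild type alone became 57 and 48 under these settings and 72 to 83 with 1 library left out; the 347 became 702 with equal lists.

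For limma, no scaling left 0 and 0 H3K27Ac calls (P14 and P21 against P0) and 2 and 12 H3K4me3 calls. Regions with a peak in at least 2 libraries gave 0 and 288 for H3K27Ac, the latter with the split reversed, and 431 for H3K4me3 at P14. One row per Brg1 peak gave 1 call for H3K4me3 at P21 against P14. Leaving out 1 library gave 5 to 183 and 15 to 200 for H3K27Ac, and 66 to 92, 202 to 444 and 0 to 40 for H3K4me3 (P14 and P21 against P0, P21 against P14), 66 being the reversed split. The causes were not tested. With a replicate block, H3K27Ac gave 179, 278 and 0 calls and H3K4me3 at P21 against P0 848. Libraries share only a number: their deviations correlated at -0.013, -0.019 and 0.269 for H3K27Ac and 0.192 for H3K4me3 at P0 and P21. No block was possible for H3K4me3 contrasts with P14 or for P12, since those groups share fewer than 2 numbers. The number of reads behind each list is unknown, so weak peaks missing from a short list cannot be told from absent ones.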

Other observations

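Doubly marked Brg1 peaks were unevenly spread over the chromosomes. On chromosome X 224 of 456 Brg1 peaks were doubly marked (49.1%, Wilson 44.6 to 53.7), against 23.7% over the 19 autosomes, whose range was 18.4% to 30.5%. Of the Brg1 peaks with H3K4me3 in both P0 replicates, 71.6% on chromosome X and 63.5% on the autosomes also had H3K27Ac, and Brg1 peaks with neither mark made up 30.3% on chromosome X and 60.0% on the autosomes. The median Brg1 fold enrichment of the doubly marked peaks was 4.78 on chromosome X and 6.08 on the autosomes.

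Later acetylation by Brg1 height differed between the replicates. From the lowest to the highest quartile of Brg1 fold enrichment, H3K27Ac was present in P14 replicate 1 at 59.6%, 65.0%, 71.2% and 78.4%, and in P21 replicate 1 at 45.5%, 52.1%, 58.7% and 67.4%. In replicate 2, with its longer lists, the shares were 96.7%, 97.0%, 97.4% and 97.98% at P14 and 93.1%, 92.9%, 93.4% and 94.6% at P21, a narrow range with no steady order at P21. The median H3K27Ac fold enrichment in P0 replicate 1 went from 7.30 in the lowest quartile to 11.1 in the highest. H3K27me3 islands at P12 went from 14.8% to 25.9% and from 16.7% to 29.6% in the wild-type libraries and from 16.4% to 30.1% in the Brg1-deficient library.

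H3K27me3 at P0 differed by Brg1 among doubly marked H3K4me3 peaks within quartiles of P0 H3K27Ac, a value that the selection used. The highest quartile held 125 peaks without Brg1. From the lowest to the highest quartile of P0 H3K27Ac, islands in P0 replicate 1 covered 35.1%, 16.5%, 8.65% and 4.93% of those with Brg1 and 19.9%, 8.75%, 4.33% and 4.80% of those without. In P0 replicate 2 they covered 40.6%, 22.1%, 12.3% and 6.88% with Brg1 and 25.3%, 13.7%, 5.51% and 10.4% without, so the order held in the lower 3 quartiles of both replicates and turned in the highest quartile of replicate 2.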
